A study of Saccharomyces cerevisiae with 8 samples.

Results

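The genes described here encode the ergosterol and mevalonate pathway of the budding yeast Saccharomyces cerevisiae, with its electron donors, its transcriptional regulators and the enzymes that store sterols as esters. They are 31 genes chosen by name out of 5449 tested. Each of the 31 was measured by 1 probe set and lay above background on all 8 arrays, so that no filter on low values touched them. Background was the 95th percentile of the probe sets for another yeast species on the same array, 4.27 to 4.40 on the log2 scale, and the lowest value of any of the 31 genes was 4.77. Levels are log2 intensity, and a log2 difference of 1 is a 2-fold change.

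Ergosterol is the main sterol of fungal membranes, where it has the place that cholesterol has in animals. Acetyl-CoA is built up through mevalonate to the isoprenoid farnesyl diphosphate, then to squalene and lanosterol, and the late enzymes of the endoplasmic reticulum turn lanosterol into ergosterol by demethylation, desaturation and reduction. Several of these late steps need oxygen and heme. The paired zinc cluster factors Upc2 and Ecm22 activate many genes of the pathway when sterol is scarce, and excess sterol is stored in lipid droplets as steryl esters.

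Total RNA of 4 groups was measured on 8 Affymetrix arrays, 2 per group: a strain labelled parental BY4742, and evolved strains 1, 2 and 3, isolates taken after growth under high glucose for approximately 450 generations. The labels give every group, parental included, the same treatment with continued high glucose, the same medium, with 2% glucose and 0.5% ammonium sulfate at 30 °C, and the same daily transfer of 10 µl into cultures of 100 ml. Replicates are labelled biological, but no cultures are named, and the p-values reflect an array-to-array spread that may be technical. Each evolved strain is 1 isolate.

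Strain markers were mixed, and several went against the label. BY4742 is an alpha strain that lacks LYS2 and carries MET17. LYS2, of lysine synthesis, stood at 9.07 ± 0.04 (SD, n = 2) on the arrays labelled parental and at 11.48 ± 0.12 (SD, n = 6) on the evolved arrays, and MET17, of methionine synthesis, exceeded background on 2 of 8 arrays. The a-factor gene MFA2 stood at 12.57 ± 0.05 (SD, n = 2) and 6.96 ± 0.12 (SD, n = 6). The alpha-factor gene MF(ALPHA)1 was at background on both arrays labelled parental and above it on all 6 evolved arrays. Its evolved levels were low, however, between 5.23 and 5.77. MFA1, the other a-factor gene, and STE2, the alpha-factor receptor gene of a cells, were also higher on the arrays labelled parental. Both stayed above background on every evolved array, MFA1 between 10.25 and 10.76 and STE2 between 6.48 and 6.97. Other markers lay on the same side of background in all groups. URA3, which BY4742 lacks, was at background on all 8 arrays, and STE3, the a-factor receptor gene of alpha cells, was above it on all 8. LEU2, deleted in BY4742, and HIS3, partly deleted there, exceeded background on all 8 arrays. Levels of LEU2 overlapped between the groups. STE3 stood at 7.14 and 7.08 on the arrays labelled parental and between 7.39 and 7.77 on the evolved arrays. HIS3 stood at 11.38 and 11.41 on the arrays labelled parental and between 12.82 and 12.94 on the evolved arrays. Differences between the groups may therefore hold strain differences, which cannot be told apart here from those of the evolved culture. Across genes, the arrays labelled parental correlated with evolved arrays at r = 0.912 to 0.923, and arrays of different evolved strains at 0.993 to 0.996. Signal at the 3' end exceeded that at the 5' end by more on parental than on evolved arrays in 5 of 7 control transcripts (median of evolved minus parental, -0.26, log2), and the part of this in the results was not tested.

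The first question is how the evolved strains, averaged, differed from the strain labelled parental. A rise or fall was called at a limma p-value under 0.05 after Benjamini-Hochberg adjustment over all genes. Of the 31 genes, 21 rose, 8 fell and 2 were not called. Over the whole array 86.7% of tested genes were called, 43.3% as higher and 43.4% as lower, so that a call by itself says little, and the share of the 31 genes that rose was 67.7%. The median log2 difference of the 31 genes was 0.53, against -0.0056 over all genes. At least 2-fold changes were called for 6 rises and 1 fall among the 31 genes, beside 10.9% and 9.95% of all genes. Of the 24 genes of the route from acetyl-CoA to ergosterol, 20 rose and 2 fell, with a median of 0.66. Both regulators, both esterification genes and the sterol-binding protein gene HES1 fell, and the calls of UPC2 and ARE2 were lost with the strain as a random block (adjusted p = 0.232 and 0.308).

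**Figure D1:**
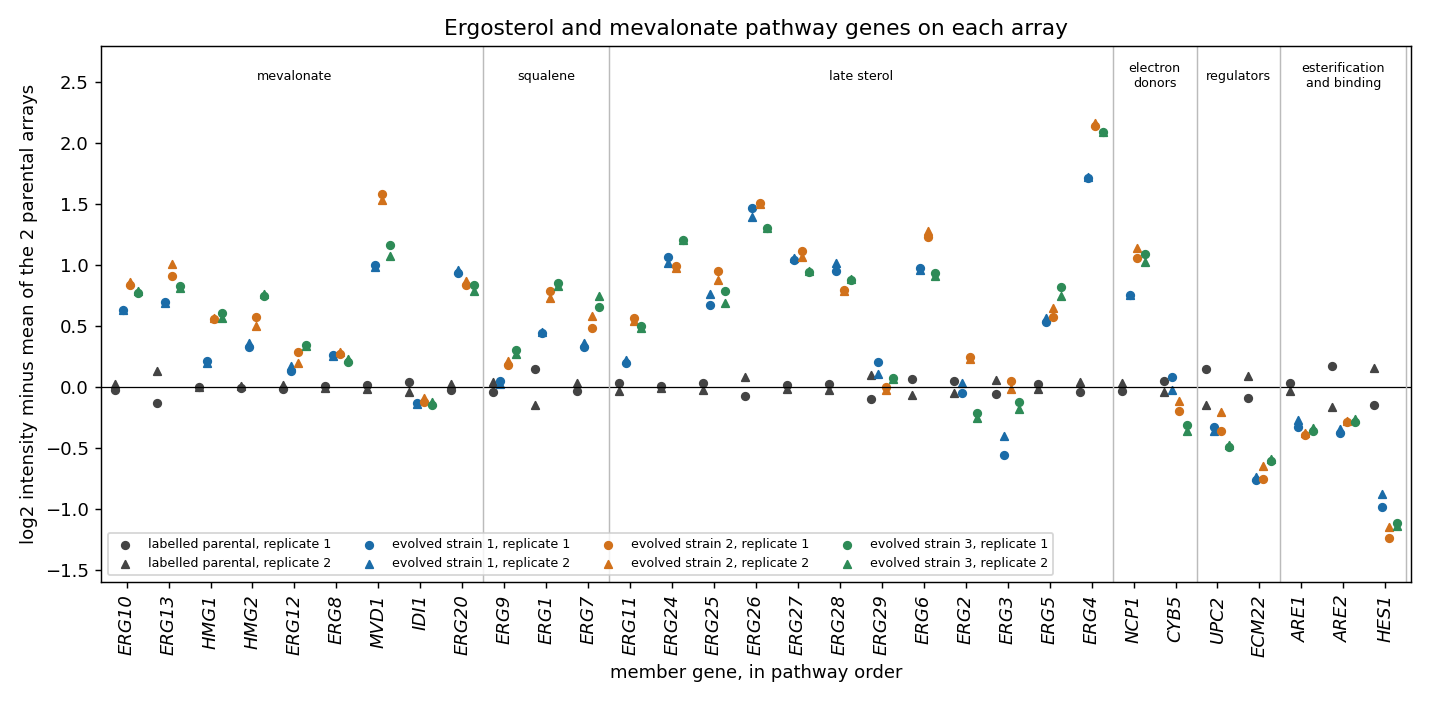
Each point is 1 array's log2 intensity minus the mean of the 2 parental arrays, for the 31 genes in pathway order; circles are replicate 1 and triangles replicate 2. The evolved points lie above both parental arrays for 20 genes and below both for 6, which are IDI1 and the 5 regulator, esterification and sterol-binding genes at the right.

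On 20 of the 31 genes all 6 evolved arrays lay above both arrays labelled parental, and on 6 all lay below both; these patterns held for 38.2% and 38.9% of all genes. The spread between replicates was larger in the parental group. The 2 arrays labelled parental lay more than 0.25 apart on the log2 scale for 5 of the 31 genes (ERG13, ERG1, UPC2, ARE2 and HES1), with a largest gap of 0.34, whereas the largest gap within an evolved strain was 0.16. For 28 of the 29 called genes the difference from parental exceeded the gap between the 2 parental arrays, and the exception was ARE2. A call already asks for a difference that is large beside the replicate spread, so that this count by itself says little. The strain was also fitted as a random block, which lets the arrays of a strain be correlated (0.854, shared by all genes). In that fit 19 rises and 3 falls were called among the 31 genes, and 3096 of all 5449 genes in place of 4725. With a single strain labelled parental, it is no test with strains as replicates.

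In the mevalonate part of the route 8 of 9 genes rose and IDI1 fell, and their median difference was 0.54 on the log2 scale. ERG10, the acetoacetyl-CoA thiolase that opens the route, stood at 10.84 and 10.89 on the arrays labelled parental and between 11.50 and 11.73 on the evolved arrays. It rose by 0.75 ± 0.03 (log2, SE), or 1.69-fold (adjusted p = 1.99e-07). ERG13, the HMG-CoA synthase, rose 1.77-fold, from 8.19 and 8.46 to between 9.01 and 9.34, and the groups did not overlap although the parental arrays lay 0.26 apart.

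HMG-CoA reductase makes mevalonate and is the main control point of the route; yeast carries it as the paralogues HMG1 and HMG2. HMG1 stood at 7.96 on each array labelled parental, at 8.18 and 8.15 in evolved strain 1, 8.52 on each array of strain 2, and 8.57 and 8.53 in strain 3. HMG2 stood at 9.79 and 9.80 on the arrays labelled parental, 10.12 and 10.15 in strain 1, 10.36 and 10.29 in strain 2, and 10.54 and 10.56 in strain 3. Both paralogues therefore lay above parental on every evolved array, with strain 1 the lowest of the evolved strains for each. The average rises were similar in size, 0.45 ± 0.02 (log2, SE; adjusted p = 2.17e-06) for HMG1 and 0.54 ± 0.03 (adjusted p = 1.86e-06) for HMG2.

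The kinases that follow changed little. ERG12, mevalonate kinase, rose by 0.24 ± 0.03 (log2, SE) and ERG8, phosphomevalonate kinase, by 0.25 ± 0.02; the call of ERG12 was lost with the strain as a random block (adjusted p = 0.114). MVD1, the decarboxylase that makes isopentenyl diphosphate, had the largest rise of the 9 genes. It stood at 8.08 and 8.05 on the arrays labelled parental, 9.07 and 9.05 in strain 1, 9.65 and 9.60 in strain 2, and 9.23 and 9.14 in strain 3. The evolved arrays lay at least 0.97 above the higher parental array, and strain 2 was highest. The average rise was 1.22 ± 0.03 (log2, SE), or 2.34-fold (adjusted p = 7.36e-08).

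IDI1, the isomerase acting on the product of MVD1, went the other way. It stood at 12.23 and 12.14 on the arrays labelled parental, 12.05 on each array of strain 1, 12.06 and 12.09 in strain 2, and 12.03 and 12.06 in strain 3. The evolved arrays lay below both parental arrays, but only by 0.05 at the nearest, and the fall of 0.13 ± 0.03 on the log2 scale (SE; adjusted p = 0.00679) was not called with quantile normalization over the tested genes (adjusted p = 0.0528) or with the strain as a random block (adjusted p = 0.35). ERG20, which makes farnesyl diphosphate, rose by 0.87 ± 0.03 (log2, SE), or 1.83-fold, from 10.83 and 10.88 to between 11.65 and 11.82.

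All 3 genes from farnesyl diphosphate to lanosterol rose, by less than 2-fold. ERG9, squalene synthase, which commits farnesyl diphosphate to sterols, changed least: 11.56 and 11.64 on the arrays labelled parental, 11.65 and 11.62 in strain 1, 11.78 and 11.82 in strain 2, and 11.90 and 11.87 in strain 3. Strain 1 overlapped the parental arrays, and the average difference of 0.17 ± 0.03 (log2, SE; adjusted p = 0.00163) was not called with the strain as a random block (adjusted p = 0.283). ERG1, the oxygen-dependent squalene epoxidase, stood at 8.88 and 8.59 on the arrays labelled parental and between 9.18 and 9.59 on the evolved arrays, a rise of 0.68 ± 0.07 (log2, SE). ERG7, lanosterol synthase, rose by 0.53 ± 0.04 (log2, SE), from 9.26 and 9.32 to between 9.61 and 10.04. In all 3 genes strain 1 was the lowest evolved strain and strain 3 the highest.

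The late sterol genes held 5 of the 6 rises of at least 2-fold. Of 12 genes 9 rose, ERG3 fell, and ERG2 and ERG29 were not called; the median log2 difference was 0.84. ERG4, the reductase of the last step to ergosterol, changed most of the 31 genes and ranked 98 among the rises of all 5449 genes. It stood at 7.55 and 7.63 on the arrays labelled parental, 9.30 and 9.31 in strain 1, 9.73 and 9.75 in strain 2, and 9.68 on each array of strain 3. The nearest evolved and parental arrays lay 1.68 apart. The average rise was 1.99 ± 0.03 (log2, SE), or 3.97-fold (adjusted p = 7.81e-09).

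The complex that removes methyl groups from the sterol ring is formed by the products of ERG25 (methyl oxidase), ERG26 (decarboxylase), ERG27 (keto reductase) and ERG28 (the scaffold that tethers them), and all 4 genes rose. ERG26 stood at 7.68 and 7.83 on the arrays labelled parental, 9.22 and 9.15 in strain 1, 9.27 and 9.25 in strain 2, and 9.06 on each array of strain 3, a rise of 1.41 ± 0.05 (log2, SE), or 2.66-fold. ERG27 stood at 9.08 and 9.05 on the arrays labelled parental, 10.10 and 10.12 in strain 1, 10.18 and 10.13 in strain 2, and 10.01 and 10.02 in strain 3, a 2.04-fold rise (adjusted p = 5.6e-08). ERG28 rose 1.85-fold, from 11.41 and 11.36 to between 12.18 and 12.40, and ERG25 1.73-fold, from 10.40 and 10.34 to between 11.04 and 11.32. In each of the 4 genes every evolved array exceeded both parental arrays, by at least 0.64 on the log2 scale in ERG25 and by more in the others. ERG29, whose product is linked to the methyl oxidase step, stood apart from the complex genes: it lay at 9.42 and 9.62 on the arrays labelled parental and between 9.49 and 9.72 on the evolved arrays, a difference of 0.07 ± 0.05 (log2, SE; adjusted p = 0.257). Without parental replicate 2 it was called higher (0.17, adjusted p = 0.00821), and without parental replicate 1 it was at -0.03.

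Of the reductases and transferases, ERG24, which reduces the double bond left by demethylation of lanosterol, stood at 9.93 and 9.91 on the arrays labelled parental, 10.99 and 10.94 in strain 1, 10.91 and 10.90 in strain 2, and 11.13 on each array of strain 3. It rose by 1.08 ± 0.02 (log2, SE), or 2.11-fold (adjusted p = 3.79e-08). ERG6, which adds the methyl group of the side chain that sets ergosterol apart from cholesterol, stood at 8.34 and 8.21 on the arrays labelled parental, 9.25 and 9.24 in strain 1, 9.50 and 9.55 in strain 2, and 9.21 and 9.18 in strain 3. Its rise was 1.05 ± 0.04 (log2, SE), or 2.07-fold (adjusted p = 2.86e-07). For both genes the evolved and parental arrays were well separated, by 0.97 for ERG24 and 0.85 for ERG6 at the nearest.

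The cytochrome P450 genes rose less. ERG11, the lanosterol demethylase that azole antifungals inhibit, stood at 9.59 and 9.53 on the arrays labelled parental, 9.76 and 9.78 in strain 1, 10.12 and 10.10 in strain 2, and 10.05 and 10.04 in strain 3. It rose 1.34-fold on average (0.42 ± 0.03, log2, SE; adjusted p = 5.89e-06), with strain 1 nearest to parental. ERG5, the side chain desaturase, rose 1.57-fold, from 8.94 and 8.90 to between 9.45 and 9.73.

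The isomerase and desaturase genes ERG2 and ERG3, which act one after the other on the sterol ring, did not share the rise. ERG2 stood at 10.52 and 10.42 on the arrays labelled parental, 10.42 and 10.50 in strain 1, 10.72 and 10.69 in strain 2, and 10.25 and 10.22 in strain 3. Strain 2 lay above parental (0.24, adjusted p = 0.00227) and strain 3 below it (-0.23, adjusted p = 0.00261), and the average of the 3 strains was -0.0014 ± 0.04 (log2, SE). ERG3 stood at 8.51 and 8.62 on the arrays labelled parental, 8.01 and 8.16 in strain 1, 8.61 and 8.55 in strain 2, and 8.44 and 8.38 in strain 3. Strain 1 was lower than parental (-0.48, adjusted p = 0.000282), strain 2 overlapped it (0.02, adjusted p = 0.821) and strain 3 was not called (-0.15, adjusted p = 0.0535). The average difference of ERG3, -0.21 ± 0.05 (adjusted p = 0.00703), was not called without parental replicate 2 (adjusted p = 0.051) or with the strain as a random block (adjusted p = 0.43).

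**Figure D2:**
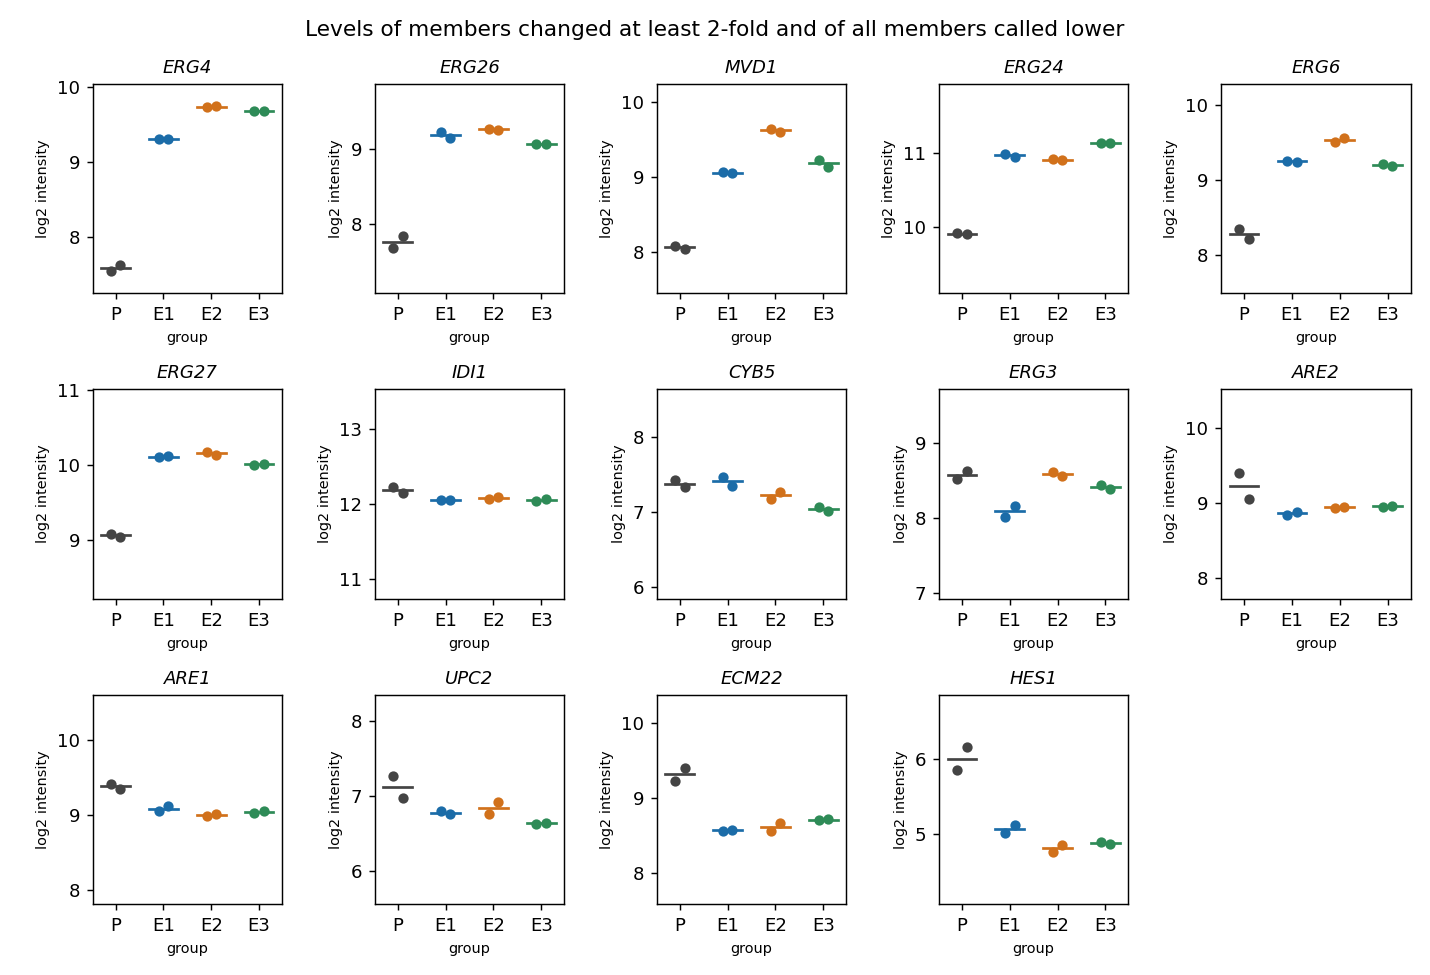
Log2 intensity of the 6 genes that rose at least 2-fold and the 8 that fell, in order of their difference, with 1 point per array and a line at each group's mean; P is the group labelled parental, E1 to E3 are evolved strains 1 to 3, and every panel spans the same log2 range. ERG4 rises from 7.55 and 7.63 to at least 9.30. ARE2 differs by less than the gap between its 2 parental arrays. UPC2, IDI1, CYB5 and ERG3 differ by 1.25 to 1.86 times that gap.

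The electron donors of the oxygen-dependent steps moved apart. NCP1, the NADPH-cytochrome P450 reductase, stood at 9.39 and 9.46 on the arrays labelled parental and between 10.18 and 10.56 on the evolved arrays, a rise of 0.97 ± 0.04 (log2, SE), or 1.96-fold (adjusted p = 3.39e-07). CYB5, cytochrome b5, stood at 7.42 and 7.33 on the arrays labelled parental, 7.46 and 7.35 in strain 1, 7.18 and 7.26 in strain 2, and 7.06 and 7.01 in strain 3. Strain 1 overlapped parental and strain 3 was lowest, at -0.34 (adjusted p = 0.000886). The average fall of 0.16 ± 0.04 on the log2 scale (SE; adjusted p = 0.0139) was not called without parental replicate 1 (adjusted p = 0.091), with array weights (adjusted p = 0.0805) or with the strain as a random block (adjusted p = 0.477).

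Both regulator genes fell, against the direction of most enzyme genes. UPC2 stood at 7.27 and 6.97 on the arrays labelled parental, 6.79 and 6.76 in strain 1, 6.76 and 6.92 in strain 2, and 6.63 and 6.64 in strain 3. All evolved arrays were lower, but the nearest lay only 0.05 below the lower parental array, and the fall of 0.37 ± 0.08 on the log2 scale (SE; adjusted p = 0.00363) was not called with the strain as a random block (adjusted p = 0.232). ECM22 stood at 9.23 and 9.40 on the arrays labelled parental, 8.56 and 8.58 in strain 1, 8.56 and 8.66 in strain 2, and 8.70 and 8.72 in strain 3. Its groups were further apart, by 0.51 at the nearest, and its fall of 0.69 ± 0.05 on the log2 scale, or 1.61-fold (adjusted p = 1.26e-05), was also called with the strain as a random block.

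The storage genes ARE1 and ARE2 and the sterol-binding gene HES1 all fell. The 15 genes for sterol transfer proteins, described below, went both ways. Of these, 9 rose and 3 fell, or 60% and 20%, beside 43.3% and 43.4% of all genes. ARE1 and ARE2 encode the acyltransferases that make steryl esters. ARE1 stood at 9.42 and 9.35 on the arrays labelled parental, 9.06 and 9.12 in strain 1, 8.99 and 9.01 in strain 2, and 9.02 and 9.05 in strain 3. It fell by 0.34 ± 0.03 on the log2 scale (SE), or 1.27-fold (adjusted p = 3.56e-05), with every evolved array lower. ARE2 stood at 9.39 and 9.06 on the arrays labelled parental, 8.84 and 8.88 in strain 1, 8.93 and 8.94 in strain 2, and 8.94 and 8.96 in strain 3. The evolved arrays were again lower, but the fall of 0.31 ± 0.08 on the log2 scale (SE; adjusted p = 0.0087) was smaller than the gap of 0.34 between the parental arrays and was not called with the strain as a random block (adjusted p = 0.308).

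HES1, which encodes a member of the oxysterol-binding protein family, had the largest fall and the lowest levels. It stood at 5.86 and 6.16 on the arrays labelled parental, 5.02 and 5.13 in strain 1, 4.77 and 4.86 in strain 2, and 4.89 and 4.87 in strain 3. All 6 evolved arrays lay at least 0.73 below the lower parental array. The average fall was 1.09 ± 0.08 on the log2 scale (SE), or 2.13-fold (adjusted p = 1.02e-05). The evolved levels of 4.77 to 5.13 lay close to the background of 4.27 to 4.40.

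**Figure D3:**
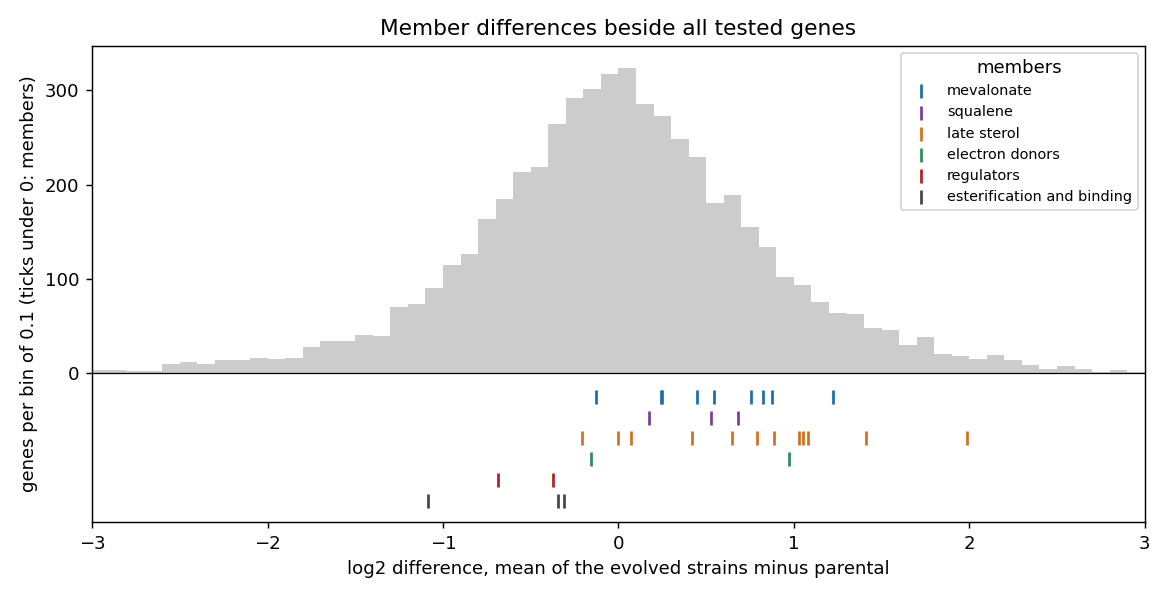
Grey columns count the 5449 tested genes by log2 difference (mean of the evolved strains minus parental, axis limited to 3 on either side), and the ticks under 0 mark the 31 genes by step. The squalene ticks all lie to the right of 0 and all regulator, esterification and binding ticks to the left, while 5 late sterol ticks lie beyond 1.

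The next comparison takes each evolved strain by itself. The 3 contrasts share the 2 arrays labelled parental, so that their agreement is no independent evidence. In strain 1, 20 of the 31 genes rose and 7 fell, beside 40.6% and 43.9% of all genes. In strain 2, 22 rose and 7 fell, beside 42.5% and 42.6%, and in strain 3, 21 rose and 8 fell, beside 43% and 41.1%. The median log2 difference of the 31 genes was 0.34 in strain 1, 0.55 in strain 2 and 0.70 in strain 3, against -0.03, -0.0078 and 0.02 over all genes.

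Called higher in each of the 3 strains were 20 of the 31 genes, and called lower in each were 6, beside 35.2% and 36% of all genes. ERG9 was called higher in strains 2 and 3 and not in strain 1 (0.04, adjusted p = 0.417). ERG2 alone of the 31 genes was called higher in a strain and lower in another, beside 185 of all 5449 genes, a similar share. ERG4 was the largest rise in every strain, at 1.72 in strain 1, 2.15 in strain 2 and 2.09 in strain 3 on the log2 scale. HES1 was the largest fall in every strain, at -0.94, -1.20 and -1.13. The count of 7 falls in strain 2 was 4 without parental replicate 1 and 3 without evolved strain 2 replicate 1.

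The last comparison sets the evolved strains against each other and does not use the parental arrays in its contrasts. Those arrays still enter the estimate of the spread. A moderated F test called a difference for 22 of the 31 genes, or 71%, beside 68.9% of all genes, a share near the background. Strain 2 differed from strain 1 for 17 of the 31 genes, beside 52.7% of all genes; 15 were higher and 2 lower, beside 29.8% and 22.9%. Strain 3 differed from strain 1 for 19, beside 57.5%; 14 were higher and 5 lower, beside 33.1% and 24.4%. Strain 3 differed from strain 2 for 11, beside 32%; 4 were higher and 7 lower, beside 17.5% and 14.5%. The widest range of the 3 strain means was 0.57 on the log2 scale, in MVD1. The count for strains 3 and 2 was 5 or 6 without any 1 of their 4 arrays, 14 without either parental array and 17 with array weights.

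**Figure D4:**
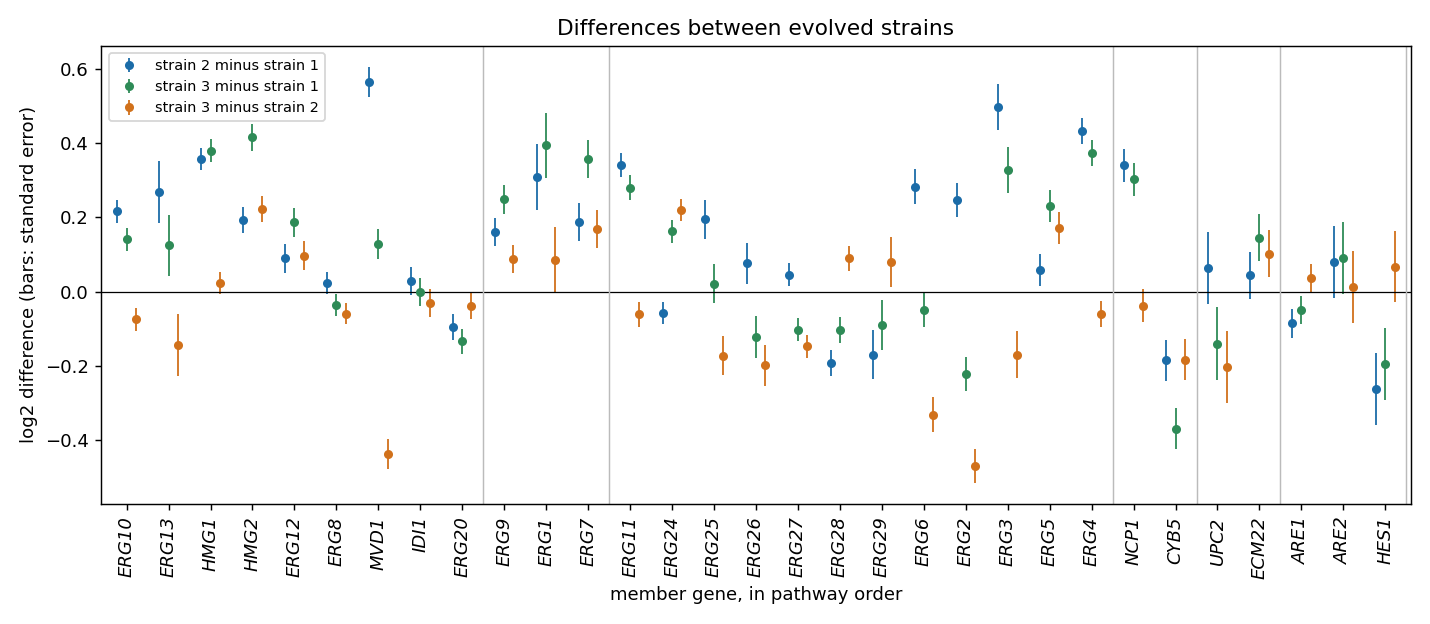
Log2 differences between pairs of evolved strains for the 31 genes in pathway order, with bars for the standard error (2 arrays against 2). Strains 2 and 3 both lie above strain 1 in HMG1, HMG2, ERG4, ERG11 and NCP1, MVD1 stands out in strain 2, and the genes from UPC2 to HES1 had no call in the F test.

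The 6 genes with the smallest adjusted p in the F test were MVD1 (adjusted p = 0.000329), HMG1 (0.000352), ERG4 (0.000403), HMG2 (0.000521), ERG11 (0.000646) and ERG2 (0.000783). HMG1, ERG4 and ERG11 shared a pattern, with strain 1 below both other strains and no call between strains 2 and 3. Strain 2 exceeded strain 1 by 0.36 ± 0.03 in HMG1, 0.43 ± 0.04 in ERG4 and 0.34 ± 0.03 in ERG11 (log2, SE). HMG2 differed between every pair, in the order strain 3, strain 2, strain 1. MVD1 was highest in strain 2, by 0.57 ± 0.04 over strain 1, and strain 3 differed from it by -0.44 ± 0.04 (log2, SE). ERG2 was also highest in strain 2 and lowest in strain 3, which differed from it by -0.47 ± 0.05 (log2, SE).

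Strain 1 had the lowest mean of the evolved strains for 17 of the 31 genes (54.8%, against 45.4% of all genes), and strain 2 the highest for 15 (48.4%, against 28.3%). The regulators UPC2 and ECM22, the storage genes ARE1 and ARE2, and HES1 had no call in the F test, with adjusted p from 0.0978 (HES1) to 0.644 (ARE2). Their strain means differed by at most 0.26 on the log2 scale. The spread in this test comes from all 8 arrays, and the parental arrays of UPC2, ARE2 and HES1 lay more than 0.25 apart. ERG20, with close parental arrays, was called with a range of 0.13. The missing calls therefore do not show that the evolved strains were alike in these genes.

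The surroundings of the pathway were read from 5 lists with 61 genes, all measured. Of these, 33 rose, 21 fell and 7 were not called, shares of 54.1% and 34.4% beside 43.3% and 43.4% over all genes. With the strain as a random block 18 of the 61 were higher and 13 lower, beside 3096 of all 5449 genes called in either direction. DAN1 was at background on all 8 arrays and ATF2 above it on 1 array, so that their calls compare values near background. Changes went both ways in each list.

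Of 15 genes of sterol uptake and of the oxygen response 8 rose and 5 fell, with a median log2 difference of 0.13. SUT1, a factor that promotes sterol uptake, rose from 8.36 and 8.51 to between 11.35 and 11.64, by 3.02 ± 0.04 (log2, SE), or 8.12-fold (adjusted p = 7.34e-09). Its paralogue SUT2 fell from 8.85 and 8.67 to between 5.99 and 6.68, or 5.49-fold (adjusted p = 1.17e-07), so that the paralogues moved in opposite directions. DAN4, a cell wall mannoprotein gene that is induced without oxygen, rose 2.03-fold. The TIR genes of the same list, named outside the rule after their values were seen, did not share this rise. TIR2 (-0.35, log2) and TIR3 (-0.17) were called lower, and TIR1 (0.03) and TIR4 (-0.03) were not called.

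Of 15 genes for sterol transfer proteins 9 rose and 3 fell, with a median of 0.45. YSP2, which carries sterol between the endoplasmic reticulum and the plasma membrane, rose 2.78-fold (adjusted p = 3.24e-08), from 8.80 and 8.90 to between 10.25 and 10.40. OSH6, of the same oxysterol-binding family as HES1, rose by 1.00 ± 0.05 on the log2 scale, and PDR16, a phosphatidylinositol transfer protein gene, fell 1.63-fold.

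Of 8 genes for steryl ester breakdown and sterol acetylation 4 rose and 4 fell. The steryl ester hydrolase genes YEH2 and YEH1 fell 3.23-fold and 2.49-fold (adjusted p = 5.63e-08 and 8.59e-07). YEH2 went from 8.82 and 8.87 to 7.15 ± 0.12 (SD, n = 6), and YEH1 from 8.38 and 8.20 to between 6.89 and 7.04. PRY1, which encodes a secreted sterol-binding protein, rose 1.82-fold. TGL1, the third hydrolase gene, rose 1.62-fold; it lay outside the rule for naming genes and was chosen after its value was seen.

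Of 10 genes for HMG-CoA reductase turnover and P450 partners 5 rose and 4 fell. SPF1, an endoplasmic reticulum ATPase, fell 1.64-fold, HRD1, the ubiquitin ligase that degrades Hmg2, rose 1.49-fold, and MCR1, a cytochrome b5 reductase of mitochondria, fell 1.43-fold. Of 13 genes that draw on isoprenoids for other products 7 rose and 5 fell. COQ1, which builds the tail of ubiquinone, rose 3.50-fold (adjusted p = 3.68e-07), from 9.10 and 8.83 to between 10.67 and 10.87. MOD5, which transfers an isoprenoid group to tRNA, fell 3.14-fold (adjusted p = 1.49e-08), from 9.89 and 9.83 to between 8.10 and 8.29, and CDC43, of the enzyme that attaches geranylgeranyl groups to proteins, rose by 1.00 ± 0.05 on the log2 scale.

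**Figure D5:**
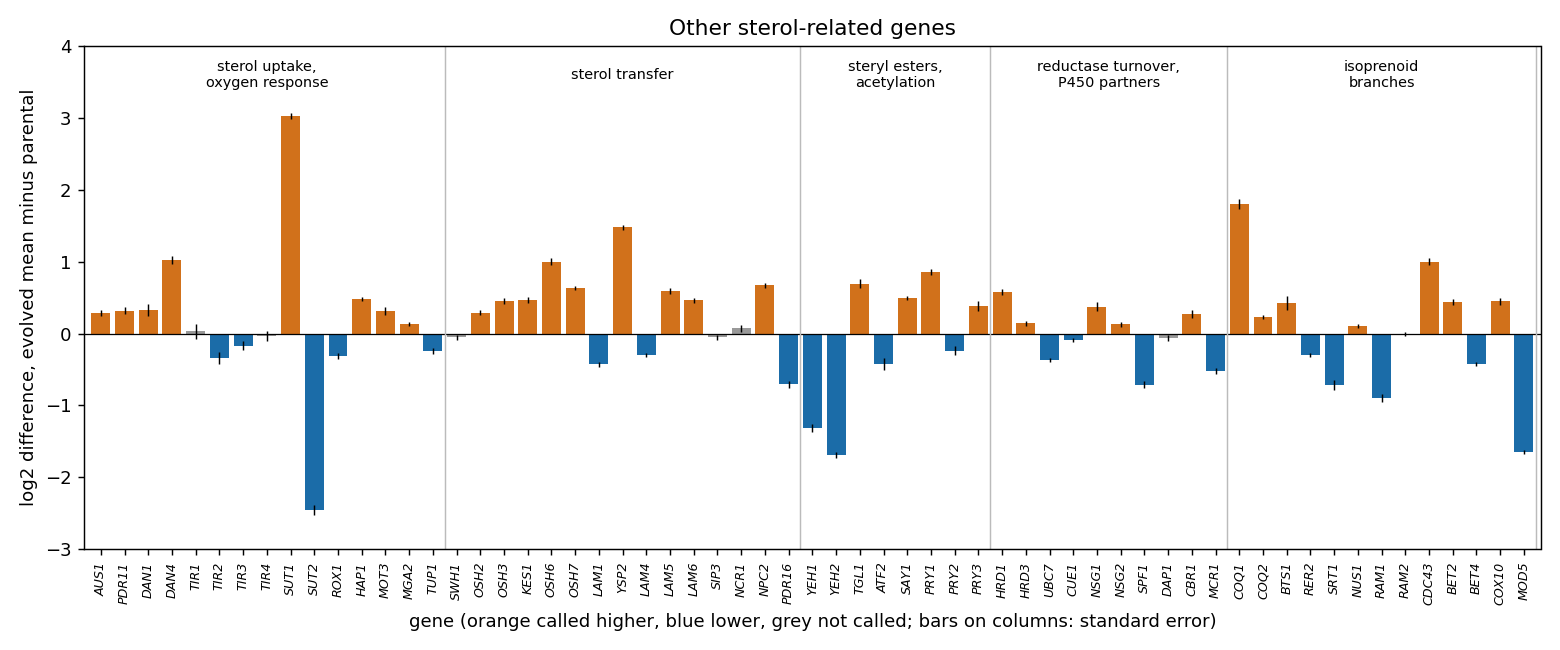
Columns give the log2 difference (mean of the evolved strains minus parental) of 61 other sterol-related genes in 5 lists, with bars for the standard error; orange genes were called higher, blue lower and grey not called. SUT1 at 3.02 and SUT2 at -2.46 are the extremes, and each list holds columns on both sides of 0.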

How the data were processed

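The deposited intensity values were made by the authors with RMA (background correction, quantile normalization between arrays and a summary per probe set), per the submitters' processing notes (version not given in the sources used here). They were on a linear scale, and log2 was taken here. Of 10928 probe sets, 5498 had 1 S. cerevisiae gene in the platform annotation. The brightest probe set was kept for the 47 genes with several, which left 5449 genes. Median intensity over all probe sets was 52.6 to 63.0 per array, and 5296 to 5326 genes were above background. The number of arrays limits the precision.

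One model with a mean per group was fitted to all 8 arrays with limma 3.58.1 in R 4.3.3 (4 residual degrees of freedom; prior of 2.52 degrees of freedom and a standard deviation of 0.0433). P-values were adjusted by Benjamini-Hochberg over all genes, with 0.05 as the threshold for a call. The smallest p that permuting 2 arrays against 2 exactly can give is 0.333, and for 2 against 6 it is 0.0357. In simulated data of 5449 genes, 50 were shifted by each size below, and the evolved strains were given no differences from each other. The evolved mean against parental called 66% of genes shifted by 0.25 (log2), 92% by 0.5, 98% by 1 and 100% by 2. In the data many more genes were called and the evolved strains differed. These rates therefore do not give the power reached here.

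The members and lists were chosen with earlier results of these data known. Values on all arrays are given for genes called with at least a 2-fold change, every called fall, the 6 smallest F test p-values and the paralogue pairs. Of each other list the 3 called genes with the largest change are named, some by their difference alone. Alternatives covered scaling, an offset of 16, dim genes, probe sets, the variance model, array weights, the replicate number, the strain as a random block and each array left out. Sequences were not used here.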

Additional observations from a re-analysis of the deposited data

Results flagged for a closer look

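The 3 evolved strains differed from each other, by the F test of the difference itself, in 22 of the 31 genes; the values here are the ranges of the 3 strain means on the log2 scale. In the mevalonate steps the range was 0.22 for ERG10, 0.38 for HMG1, 0.42 for HMG2, 0.19 for ERG12, 0.57 for MVD1 and 0.13 for ERG20. In the squalene steps it was 0.25 for ERG9, 0.39 for ERG1 and 0.36 for ERG7. In the late sterol steps it was 0.34 for ERG11, 0.22 for ERG24, 0.19 for ERG25, 0.20 for ERG26, 0.15 for ERG27, 0.19 for ERG28, 0.33 for ERG6, 0.47 for ERG2, 0.50 for ERG3, 0.23 for ERG5 and 0.43 for ERG4. Of the electron donors, NCP1 had a range of 0.34 and CYB5 of 0.37. The same test called 68.9% of all genes. With 2 arrays a group, no array could be tested for standing apart from the others of its group.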

How the results depend on the processing

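Of the 31 genes, 22 kept their direction and call in the average of the evolved strains under all 17 alternatives. The other 9 were IDI1, ERG12, ERG9, ERG3, CYB5, UPC2 and ARE2, whose calls were lost under at least 1 of them, and ERG2 and ERG29, not called with all arrays, which changed sign; ERG29 was called higher without parental replicate 2 (adjusted p = 0.00821). Leaving out 1 array at a time moved ERG2 between -0.0496 and 0.0469 and ERG29 between -0.0276 and 0.17; ERG29 was at -0.0276 without parental replicate 1, and ERG2 was at 0.0469 without it, 0.01 without evolved strain 1 replicate 1, 0.0022 without evolved strain 2 replicate 2 and 0.0051 without evolved strain 3 replicate 2. Quantile normalization over the tested genes gave medians of the 31 genes of 0.46 (average), 0.50 (strain 2) and 0.62 (strain 3), and median centring gave 0.47, 0.47 and 0.63. With the strain as a random block, 3 of the 31 genes were lower, 18 other sterol-related genes were higher and 13 lower, and 3096 genes were called in all; the within-strain correlation was 0.854. Array weights gave 17 genes for strain 3 minus strain 2. With 1 array left out this count ranged from 5 to 14, the F test count from 17 to 28, and the falls in strain 2 from 3 to 7; a group left with 1 array is assumed to vary like the others. The replicate numbers did not pair the samples (deviations from the group means correlated at -0.12 to 0.03), and with a replicate block 21 of the 31 genes were higher and 8 lower, as without it. The cause of these changes was not tested.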
